A study of Mus musculus with 3 samples.

Results

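Fibroblasts were examined in 3 droplet-based single-cell RNA sequencing libraries of mouse bladder urothelium, the epithelium that lines the bladder. A cell was taken as a fibroblast when it had at least 500 genes, at most 20% of its unique molecular identifiers (UMIs, each standing for 1 counted transcript) from mitochondrial genes, and UMIs of Col1a1, Col1a2, Col3a1 and Dcn that summed to at least 10 and to at least 0.2% of its total. These 4 genes encode the chains of the fibrillar collagens I and III and the proteoglycan decorin. The cells were thus chosen by the measured UMIs of these 4 genes. Of 25784 barcodes, 16821 passed the gene and mitochondrial limits, and 65 of them met the marker limits. There was 1 library for each of 3 genotypes (wild type, Lpar6 knockout and Cab39l knockout), and every library pooled 15 mice. Per the labels, bladders were taken after the urethra had been tied and 50 µl of 0.25% trypsin had been injected, were kept warm for 30 minutes, and the cells passed a 70 µm strainer and a Ficoll gradient that removed red blood cells. Lpar6 encodes a receptor for lysophosphatidic acid, Cab39l a partner of the kinase LKB1, and the part of either gene that was deleted, the strain, the age and the sex were not given in the sources used here. With 1 library per group and no way to tell the animals apart, no test was made and differences between libraries had no replicate check.

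Fibroblasts make and remodel the extracellular matrix of connective tissue. In the bladder they lie beneath the epithelium in the lamina propria, between muscle bundles and in the outer coat (adventitia). They are known as a source of signals, among them WNT, BMP and FGF ligands, to which the epithelium above answers. Fibroblasts carrying Pi16, Dpp4 and Cd34 are known from the adventitia and vessel cuffs of many organs, and those carrying Col15a1 or Penk from the tissue between. They also keep the transcription factors of their embryonic position, such as Hox genes, into adult life.

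The fibroblasts numbered 14 of 4326 filtered cells in wild type, 46 of 5838 in the Lpar6 knockout and 5 of 6657 in the Cab39l knockout. As shares these are 0.324% (exact 95% binomial interval 0.177 to 0.542), 0.788% (0.577 to 1.05) and 0.0751% (0.0244 to 0.175). The Lpar6 knockout library held the most and the Cab39l knockout library the fewest, and the 3 intervals, which cover counting error only, did not overlap. Genotype, pool and digestion changed together from library to library and cannot be told apart. The 65 cells held 345029 UMIs, of which wild type gave 133510, the Lpar6 knockout 189205 and the Cab39l knockout 22314. Their median depth was 8881, 3637 and 2310 UMIs, against a median of 22869.5 in the other filtered cells. In the Cab39l knockout 1 cell, the one richest in Col3a1, held 12073 of the 22314 UMIs (54.1%). Levels of that library given below are pooled over UMIs and so weight this cell most.

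**Figure D1:**
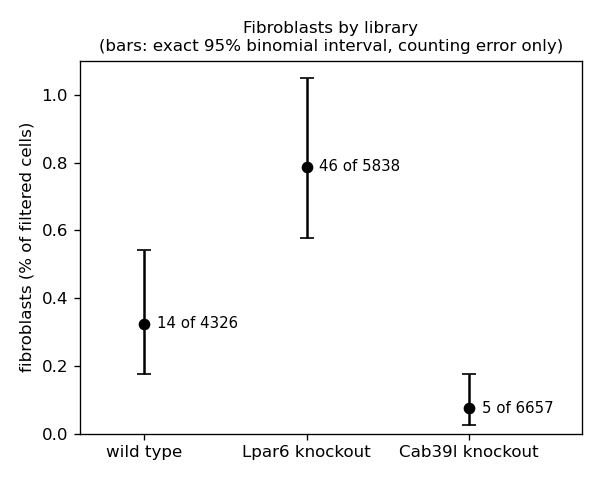
Share of filtered cells (%) that met the fibroblast rule, by library, with exact 95% binomial intervals that cover counting error only. The Lpar6 knockout stands highest at 0.788% and the Cab39l knockout lowest at 0.0751%, from 46 and 5 cells.

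Near the limits of the rule, the member with the fewest marker UMIs had 10 (0.642% of its total), and the nearest cell outside, with 8 marker UMIs, had 0.729%. There were 11 cells that met the share but not the UMI limit, and 3 that met the UMI limit but not the share, the highest of them at 0.111%. The member with the lowest share stood at 0.216%, with 67 marker UMIs in 31063. These values chose the cells and are given as a description.

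The label was checked against markers of the cell types that such a suspension can hold. Each of the 6 fibroblast markers was higher in the members than in the other filtered cells, which for 4 of them follows from the rule. Endothelial markers summed to 6 UMIs over the 65 cells, with Cdh5, Tie1 and Emcn at 0, and adipocyte markers to 2 UMIs, with Adipoq and Plin1 at 0. Over the 65 cells, 0 UMIs allows up to 8.69 CPM. Schwann and neural markers gave 18 UMIs, 14 of them Mbp, with Sox10 at 0, and the 17 immune markers gave 27 UMIs in 5 cells. Of these 27 immune UMIs, 23 lay in 1 wild-type cell of 13335 UMIs, and whether it is a mixed droplet was not tested. Smooth muscle markers gave 35 UMIs, among them 9 of Tagln, all in the Cab39l knockout. Pericyte markers gave 27 UMIs in 9 cells (78.3 CPM, of which Rgs5 63.8 CPM), against 163 CPM in urothelial reference cells. Male accessory gland epithelial markers gave 15 UMIs in 9 cells, and the organ that the fibroblasts came from was not tested. Urothelial RNA was present. The uroplakins Upk1a, Upk1b, Upk2 and Upk3a, proteins of the urothelial surface, together stood at 2762 CPM (UMIs of a gene scaled to a library total of 1000000) in the fibroblasts, 26.3% of the level in 13549 urothelial reference cells. In 1126 immune reference cells they stood at 11.4%. This group also held 15476.5 CPM of male accessory gland epithelial markers, beside 11067.7 CPM of immune markers. Urothelial reference cells held 137.8 CPM of the accessory gland markers. Whether the group is made of immune cells alone was not tested, and "immune cells" below means this group. In 8 members (2 wild-type, 4 Lpar6 knockout and 2 Cab39l knockout cells) uroplakins reached 0.5% of UMIs, and the other 57 stood at 11.5% of the urothelial level. The 2 wild-type cells held 22815 and 22984 of the 133510 fibroblast UMIs of their library. Erythroid genes summed to 1684 UMIs, of which 1650 lay in 1 wild-type cell of 22984 UMIs. The libraries shared 53 cell barcodes over the 3 pairs, and 0 of them belonged to a fibroblast. Xist without Y-linked UMIs was found in 24 fibroblasts, Y-linked UMIs without Xist in 15, both in 3 and neither in 23. In immune reference cells these were 272, 258, 30 and 566 of 1126, and the part of free RNA in them was not tested.

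The targeted genes were looked at first. Lpar6 had 2 UMIs in the wild-type fibroblasts and 0 in those of the Lpar6 knockout, where 0 of 189205 UMIs allows up to 15.9 CPM. The other filtered cells of that library also had 0.0 CPM of Lpar6, against 14.4 CPM in wild type. Cab39l had 16 UMIs in wild type (120 CPM, exact 95% Poisson interval 68.5 to 195), 9 in the Lpar6 knockout (47.6 CPM, 21.8 to 90.3) and 0 in the Cab39l knockout, where 22314 UMIs allow up to 134 CPM. In the other cells the gene stood at 110.03 CPM in wild type, 94.2 CPM in the Lpar6 knockout and 31.7 CPM in the Cab39l knockout. The latter level is not 0, the deleted part is not known, and a 3' tag outside it would not check the label, so no check follows from the 5 fibroblasts of that library.

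Decorin, which the rule used, was found in every fibroblast. Dcn, a small proteoglycan that binds collagen fibrils, stood at 9670 CPM in wild type (9149 to 10212), 12954 CPM in the Lpar6 knockout (12446 to 13477) and 10218 CPM in the Cab39l knockout (8934 to 11634). It was found in 65 of 65 cells, with single cells between 1642 and 30874 CPM and a median of 13358 CPM. The level in the other filtered cells was 0.748 CPM, a log2 difference of 12.68 on the scale of log2(CPM + 1). Dcn is one of the genes of the rule, so its presence is no finding. Levels are counts of 3' tags and are not compared between genes.

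Among the fibrillar collagens, which form the tensile fibres of the tissue, 5 of 11 genes passed the limits for comparison, which asked for at least 20 UMIs over both groups and 50 CPM in the higher one. Each of these 5 was at least 4-fold higher in fibroblasts than in the other filtered cells, as were 487 of 3269 genes (14.9%) over the whole table, while 66 (2.02%) were at least 4-fold lower. The rule used this contrast, so nothing is read from such counts, and a gene that passes through its level in fibroblasts had to differ. Col3a1, the chain of collagen III, stood at 1999.85 CPM in wild type, 618 CPM in the Lpar6 knockout and 7439 CPM in the Cab39l knockout. In wild type 1 cell held 95 and another 64 of the 267 UMIs. The median cell stood at 945 CPM in wild type and 588 CPM in the Lpar6 knockout. One cell held 142 of the 166 Cab39l knockout UMIs (85.5%), and without that cell the library stood at 2344 CPM (1502 to 3487). Over the 3 libraries the pooled level was 1594 CPM, without the Lpar6 knockout 2779 CPM, and as a mean of the 3 library levels 3352.5 CPM. Col1a2 stood at 1476, 772 and 2689 CPM and Col1a1 at 846, 513 and 1927 CPM. In the same Cab39l knockout cell lay 54 of the 60 Col1a2 UMIs and 35 of the 43 Col1a1 UMIs of its library, and without it the levels were 586 and 781 CPM. The 4 remaining cells were thus within the range of the other libraries for Col1a1. Col5a2 and Col5a1, chains of the collagen V that starts fibrils, stood at 148 CPM (231 without the Lpar6 knockout) and 72.5 CPM.

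Upstream sequence is shown for the leading genes, those of at least 100 CPM with the largest log2 against other cells. The rule used this contrast, and the leading genes include all 4 genes of the rule, Col3a1 among them. Of the 20 leading genes, 13 had an entry in the RefSeq promoter table (GRCm38.p6). For 3 of the 13 the 150 bases before the start site touched no exon of the GENCODE vM21 annotation. The windows were searched on both strands for CCAAT and for TATAAA, and capitals mark each match, ATTGG and TTTATA being the reverse forms. The Col3a1 window is chr1:45311388-45311537, that of Igfbp6 (an IGF binding protein) chr15:102144036-102144185 and that of Fbln1 (fibulin 1) chr15:85205799-85205948, each on the plus strand and written 5′ to 3′.
Col3a1: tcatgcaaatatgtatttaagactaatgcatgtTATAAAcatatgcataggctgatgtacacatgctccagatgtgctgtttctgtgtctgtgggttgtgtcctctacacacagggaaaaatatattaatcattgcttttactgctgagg
Igfbp6: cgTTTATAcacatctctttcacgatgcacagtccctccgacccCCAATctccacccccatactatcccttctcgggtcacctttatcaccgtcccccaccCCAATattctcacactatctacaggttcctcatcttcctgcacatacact
Fbln1: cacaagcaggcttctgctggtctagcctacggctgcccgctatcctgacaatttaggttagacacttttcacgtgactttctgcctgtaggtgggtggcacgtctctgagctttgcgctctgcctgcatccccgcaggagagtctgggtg
The Col3a1 window held 1 TATAAA, which began 117 bases before the start site. That of Igfbp6 held 2 CCAAT and 1 reverse TATAAA, the latter beginning 148 bases before it. The Fbln1 window held neither, and it belongs to 1 of 2 start sites of that gene. Over 32851 windows of the same length, 24.5% held CCAAT and 7.57% TATAAA. A match is a description of these letters and not a binding site.

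Other collagens, which link fibres or form nets, gave 33 genes, of which 7 passed the limits, 7 of them called at least 4-fold higher. Col14a1, which sits on the surface of collagen fibrils, stood at 1131 CPM in wild type, 761 CPM in the Lpar6 knockout and 448 CPM in the Cab39l knockout, against 1.22 CPM in the other cells. It was found in 53 of 65 cells. The beaded-filament chains Col6a1, Col6a2 and Col6a3 stood at 200, 122 and 78.3 CPM, the last at 42.5 CPM without wild type and 148 CPM without the Lpar6 knockout. Col4a1, of the basement membrane, stood at 78.3 CPM. There were 15 genes of this list with no UMI, each of which could still be present at up to 8.69 CPM.

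Proteoglycans besides decorin included lumican and osteoglycin. Of 22 genes 12 passed the limits and 10 were called higher, with a median log2 of 6.41 against 0.27 over the 3269 genes. Lum, which spaces collagen fibrils, stood at 614, 449 and 762 CPM in wild type, the Lpar6 knockout and the Cab39l knockout, and was found in 45 cells. In the Cab39l knockout 15 of its 17 UMIs (88.2%) again lay in 1 cell. Ogn stood at 290 CPM, Bgn (biglycan) at 241 CPM and the cell-surface syndecan Sdc2 at 217 CPM. The related Sdc4 went the other way, at 183 CPM against 328 CPM in urothelial reference cells.

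Genes of elastic fibres, which let the bladder wall recoil after filling, were represented by microfibril proteins and by elastin. Of 18 genes 13 passed the limits and 13 were called higher, with a median log2 of 6.75. Mfap5, a microfibril glycoprotein, stood at 1520 CPM in wild type, 2326 CPM in the Lpar6 knockout and 1344 CPM in the Cab39l knockout, in 59 of 65 cells. Mgp, matrix Gla protein, which keeps soft tissue free of mineral, stood at 756 CPM in wild type, 2246 CPM in the Lpar6 knockout and 359 CPM in the Cab39l knockout. Fbln1, a fibulin that binds elastic fibres, stood at 502, 1633 and 538 CPM. For both of these genes the Lpar6 knockout lay highest, and without that library the pooled levels of 1548 and 1125 CPM came to 699.5 and 507 CPM. As a mean over single cells Mgp stood at 2526 CPM. Efemp1, another fibulin, stood at 1236, 1020 and 493 CPM, and Fbn1, the microfibril core fibrillin 1, at 1026, 814 and 986 CPM. Elastin itself (Eln, named after its value was seen) stood at 75.4 CPM, and at 38.5 CPM without the Lpar6 knockout.

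Genes that fold, trim and crosslink collagen were also present, with 13 of 25 passing the limits and 11 called higher (median log2 6.47). Sparc, a collagen-binding glycoprotein, stood at 2322 CPM in wild type, 1734 CPM in the Lpar6 knockout and 7305 CPM in the Cab39l knockout, where 132 of 163 UMIs lay in the cell rich in Col3a1 and the rest stood at 3027 CPM. Pooled it stood at 2322 CPM, and as a mean of the 3 library levels at 3787 CPM. Serpinh1, the collagen chaperone, stood at 659, 476 and 2017 CPM. Pcolce2 and Pcolce, which enhance the removal of the collagen propeptide, stood at 571 and 264 CPM, and the crosslinking oxidase Loxl1 at 186 CPM. P4hb, a general folding enzyme, stood at 191 CPM against 119 CPM in urothelial cells and was not called.

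Basement membrane genes gave 8 of 21 that passed the limits, 8 of them called (median log2 5.99). Nid1, which joins laminin to collagen IV, stood at 592 CPM in wild type, 301 CPM in the Lpar6 knockout and 224 CPM in the Cab39l knockout. Lama4, a laminin chain, stood at 345, 122 and 0 CPM, where 0 allows up to 134 CPM, and pooled at 200 CPM, or 109 CPM without wild type. Lamc1 stood at 191 CPM, and Lamb1 at 125 CPM (66.2 without wild type and 193 without the Lpar6 knockout). Lamb2 stood at 89.8 CPM against 18.4 CPM in urothelial cells. Matricellular and adhesive glycoproteins gave 16 of 30 that passed, with 15 called (median log2 7.11). Fn1, fibronectin, stood at 1131, 381 and 224 CPM, and pooled at 661 CPM, which came to 364 CPM without wild type and 1001 CPM without the Lpar6 knockout. In wild type 1 cell held 35.1% of its UMIs. The median cell stood at 843 CPM in wild type and 211 CPM in the Lpar6 knockout. In immune reference cells Fn1 stood at 476 CPM, so against those cells its log2 was 0.47. Sparcl1 stood at 554 CPM, and at 359 CPM without the Lpar6 knockout. Dpt, dermatopontin, stood at 801, 402 and 359 CPM in 36 cells. Igfbp7 was present in both kinds of cell, at 948 CPM against 272 CPM in urothelial cells, and was not called. Postn (periostin), named after its value was seen and known from activated fibroblasts, stood at 622, 122 and 896 CPM, and pooled at 365 CPM (203 without wild type and 661 without the Lpar6 knockout). In the Cab39l knockout every UMI of Postn, Fn1 and Dpt lay in 1 cell, the one rich in Col3a1.

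Proteases and their inhibitors gave 16 of 29 that passed, with 15 called (median log2 6.40). Timp2, an inhibitor of metalloproteases, stood at 2090 CPM in wild type, 1591 CPM in the Lpar6 knockout and 986 CPM in the Cab39l knockout. Timp3, the inhibitor that stays bound to matrix, stood at 412, 1353 and 0 CPM, where 0 allows up to 134 CPM, and pooled at 901 CPM. Over wild type and the Cab39l knockout together it stood at 353 CPM, and as a mean of the 3 library levels at 588 CPM. Serping1, the inhibitor of complement C1, stood at 801, 1173 and 538 CPM and was found in 62 cells. Cst3, a cysteine protease inhibitor, stood at 864 CPM but at 2295 CPM in immune cells.

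**Figure D2:**
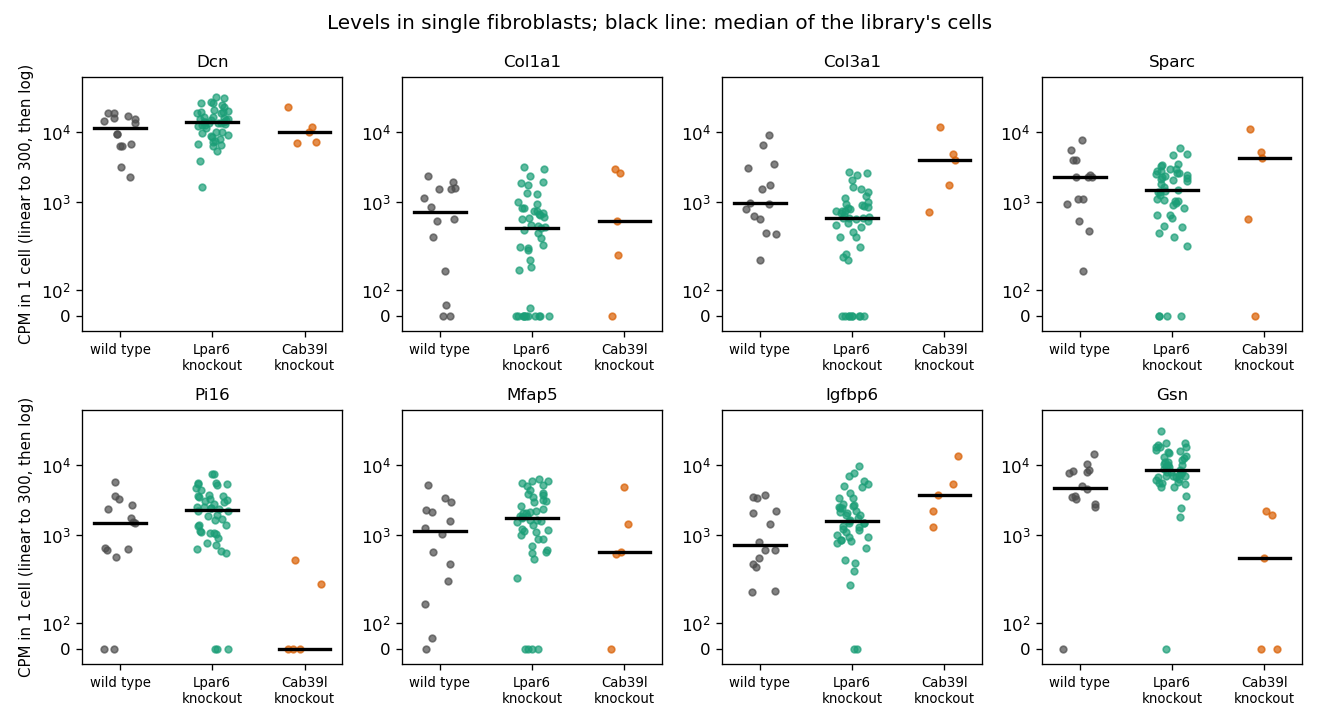
CPM of 8 genes in each of the 65 fibroblasts by library, on an axis that is linear to 300 and logarithmic above, with the median of each library's cells as a black line. Dcn is above 1600 CPM in every cell, whereas Pi16 and Gsn lie lower in the 5 Cab39l knockout cells, with medians of 0 and 467 CPM; 2 of these 5 cells carry the mesothelial gene Msln.

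Genes known from adventitial fibroblasts were found in most of these cells, with at least 5 of 16 in 59 of 65 cells. Of 16 such genes 14 passed the limits and 14 were called higher than in the other cells (median log2 8.002). Pi16, a secreted peptidase inhibitor, stood at 1326 CPM in wild type (1138 to 1536), 2294 CPM in the Lpar6 knockout (2083 to 2520) and 179 CPM in the Cab39l knockout (48.8 to 459). It was found in 12 of 14, 43 of 46 and 2 of 5 cells. The Cab39l knockout value was the lowest, a difference between single libraries with no replicate check. In that library 2 of the 5 cells carried the mesothelial gene Msln and had 0 Pi16 UMIs, and the other 3 stood at 246 CPM. Nkain4, another mesothelial marker, had a UMI in 4 of the 5, so those 3 may not be free of mesothelial cells. The 4 UMIs there, 3 of them in the cell rich in Col3a1, make the level imprecise. Without the Lpar6 knockout the pooled level of 1782 CPM came to 1162 CPM. With cells thinned to a depth of 1600 UMIs, where 7 fibroblasts were too shallow to enter, Pi16 was found in 81.0% of fibroblasts (68.6 to 90.1), 3.47% of immune and 0.0473% of urothelial reference cells. Unthinned shares were 87.7%, 7.02% and 0.244%, at median depths of 3743, 2960 and 26221 UMIs. Clec3b, tetranectin, stood at 1476, 1395 and 627 CPM, and was found in 84.5% of thinned fibroblasts, 0 of 979 immune and 0.0236% of urothelial cells. Cd34, a sialomucin also known from vessels, stood at 674, 798 and 314 CPM. Ly6a, the Sca-1 antigen, stood at 1670, 1786 and 1434 CPM. Dpp4, a surface peptidase, was sparse, at 66.7 CPM and with a UMI in 16 cells.

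Genes known from fibroblasts of the tissue interior were also found, with 8 of 13 passing the limits and 8 called (median log2 5.81). Together they gave a UMI in 63 of 65 cells, and a median of 3 of the 13 per cell (range 0 to 9). Apart from Mgp, Cygb (cytoglobin) stood at 328 CPM and Apoe at 629 CPM, the latter with 2506 CPM in immune cells. Col15a1 had 4 UMIs, Smoc2 5 UMIs and Penk 16 UMIs over the 65 cells. A median of 9 of the 16 adventitial genes was found per cell, with 12 in wild type, 9 with Lpar6 knocked out and 4 with Cab39l knocked out, in the order of their median depth. Pdgfra, the receptor that marks fibroblasts in many organs, stood at 98.5 CPM with a UMI in 21 cells, and was at 57.8 CPM without the Lpar6 knockout. Pdgfrb gave 17 UMIs.

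Gsn, gelsolin, an actin-severing protein, stood at 5056 CPM in wild type, 8906 CPM in the Lpar6 knockout and 1344 CPM in the Cab39l knockout, and in urothelial cells at 780 CPM. The 3 Cab39l knockout cells without Msln stood at 1719 CPM, with 23 of their 28 UMIs in the cell rich in Col3a1. Without the Lpar6 knockout its pooled level of 6927 CPM came to 4524 CPM. Vim, the mesenchymal filament vimentin, stood at 2165, 1982 and 6767 CPM. Of the other genes known from many fibroblasts, Thy1 stood at 125 CPM (80.4 without wild type), S100a4 at 110.1 CPM, and Mfap4 gave 5 UMIs.

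Mesothelial genes were looked for because they can mark another matrix-bearing cell type. Msln, which coats the peritoneal lining, gave 16 UMIs in 3 cells, 1 of the Lpar6 knockout with 9 and 2 of the Cab39l knockout with 2 and 5. These 3 cells had 0 Pi16 UMIs and between 10 and 39 Dcn UMIs, and held 12 of the 16 UMIs of Rspo1, a WNT pathway enhancer. Wt1 gave 7 UMIs, 5 of them outside the 3 cells with Msln, Muc16 0 and Nkain4 27 UMIs (78.3 CPM, and 123 CPM without wild type). Wt1 had a UMI in 2 of the 5 Cab39l knockout cells, 1 of them without Msln. Of the other listed markers, Gpm6a had a UMI in 4 cells, Cldn15 in 3 and Lrrn4 in 1. Upk3b had a UMI in 10 cells, and in 89.3% of urothelial reference cells. Nkain4 was found in 15 cells, and 20 of its UMIs lay outside the 3 cells with Msln. Krt19, which urothelium also carries at 1818 CPM, stood at 722 CPM in 49 cells. The nearest members to the limit of the rule included one of these cells, with 10 marker UMIs, each of them Dcn.

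Growth factor and cytokine genes were taken from 8 lists. Of their 175 genes, 34 passed the limits and 24 were called higher, with a median log2 of 5.52.

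**Figure D3:**
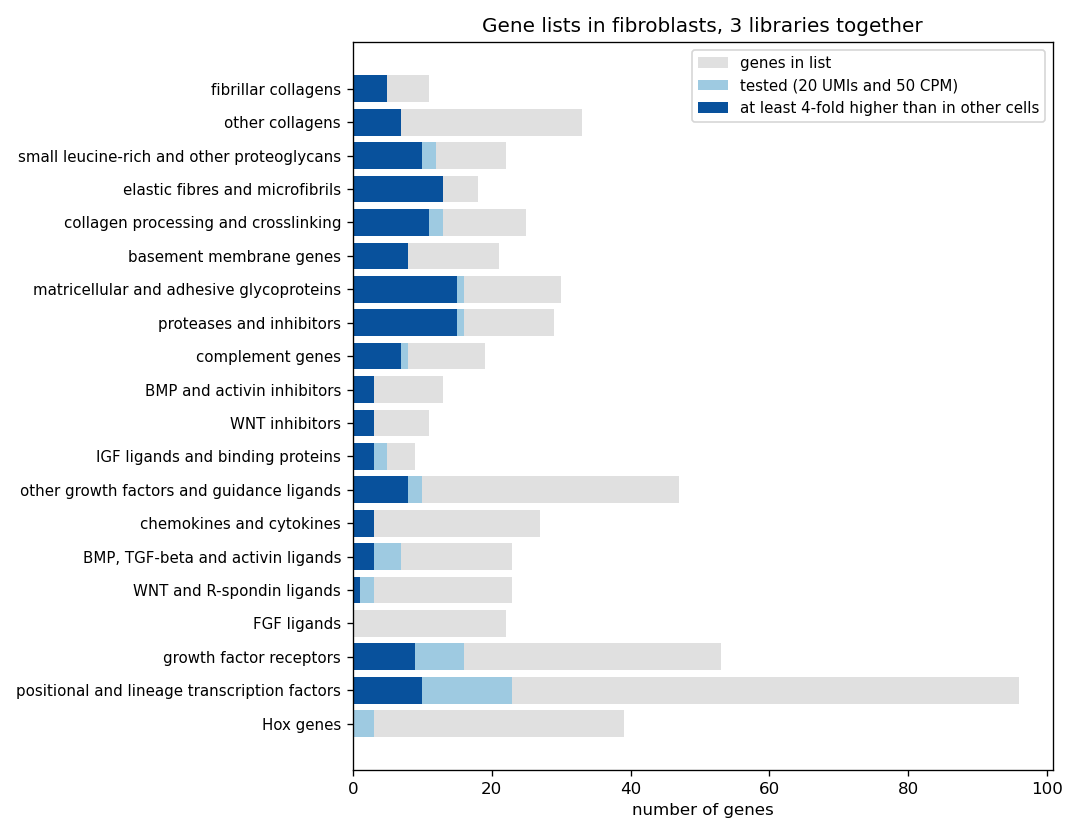
Number of genes in each of 20 lists (grey), of those that passed the limits of 20 UMIs and 50 CPM (light blue) and of those at least 4-fold higher in fibroblasts than in other filtered cells (dark blue). Of the matrix lists, elastic fibres reached 13 of 18 genes, while none of the 22 FGF ligands passed the limits.

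FGF ligands, known signals from stroma to urothelium, gave few counts. The 22 genes summed to 30 UMIs in 19 cells (86.9 CPM), against 6.46 CPM in urothelial and 6.27 CPM in immune reference cells. None passed the limits, and 15 had no UMI. Fgf2 gave 16 UMIs (46.4 CPM, 26.5 to 75.3), with 10 in wild type, 5 with Lpar6 knocked out and 1 with Cab39l knocked out. Fgf7 and Fgf10, the ligands of the epithelial FGF receptor, gave 2 UMIs and 1 UMI, which at this depth allows at most 20.9 and 16.1 CPM by the upper limits of their intervals. Fgf1, Fgf18 and Fgf9 gave 4, 3 and 3 UMIs.

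Among WNT and R-spondin ligands 3 of 23 passed the limits, and 1 was called. Wnt2 stood at 89.9 CPM in wild type (12 UMIs), 222 CPM in the Lpar6 knockout (42 UMIs) and 403 CPM in the Cab39l knockout (9 UMIs), with a UMI in 30 of 65 cells. In urothelial cells it stood at 0.0203 CPM, and the pooled log2 was 7.34. Wnt5a and Wnt4 were not called higher. Wnt5a stood at 157 CPM in wild type, 31.7 CPM in the Lpar6 knockout and 0 CPM in the Cab39l knockout (where 0 allows up to 134 CPM), and pooled at 78.3 CPM against 142 CPM in urothelial cells, with 21 of its 27 UMIs in wild type, and with 28.4 CPM without that library and 135 CPM without the Lpar6 knockout. The pooled level was thus below the urothelial one, and that of wild type was not. Wnt4 stood at 26.1 CPM against 120 CPM, and at 12.8 CPM without the Lpar6 knockout. Wnt11 gave 9 UMIs. WNT antagonists gave 3 of 11 that passed, with 3 called. Dkk3 stood at 116 CPM, Sfrp2 at 81.2 CPM and Sfrp4 at 92.7 CPM. Sfrp4 had 29 of its 32 UMIs in wild type, and stood at 14.2 CPM without that library and at 186 CPM without the Lpar6 knockout. Sfrp1 gave 16 UMIs, and Sfrp5, with no UMI, was not detectable at this depth.

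BMP, TGF-beta and activin ligands gave 7 of 23 that passed, with 3 called. Bmp4, which stroma makes in answer to epithelial hedgehog, stood at 52.4 CPM in wild type (7 UMIs), 89.8 CPM in the Lpar6 knockout (17 UMIs) and 0 CPM in the Cab39l knockout, where 0 allows up to 134 CPM. Pooled it stood at 69.6 CPM against 1.92 CPM in urothelial cells, at 44.9 CPM without the Lpar6 knockout and at 109.7 CPM as a mean over single cells. Bmp1, which is in fact the protease that trims procollagen, stood at 107 CPM, with 70.9 CPM without wild type and 167 CPM without the Lpar6 knockout. Tgfb2 stood at 55.1 CPM against 0.122 CPM, and Bmp3 at 107 CPM against 68.1 CPM. Bmp6 gave 11 UMIs. Antagonists of the family gave 3 of 13 that passed, with 3 called (median log2 8.70). Fstl1, a follistatin-like glycoprotein, stood at 1034, 851 and 1613 CPM, and Nbl1, a DAN family antagonist, at 427, 571 and 448 CPM in wild type, the Lpar6 knockout and the Cab39l knockout. Both were found in each of the 3 libraries. Twsg1 stood at 86.9 CPM, and Fst and Fstl3 gave 14 and 7 UMIs.

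The IGF system was represented by its binding proteins. Igfbp6, which binds IGF2, stood at 1116 CPM in wild type, 1993 CPM in the Lpar6 knockout and 3496 CPM in the Cab39l knockout, and was found in 63 of 65 cells. In the Cab39l knockout 39 of its 78 UMIs lay in the 2 cells with Msln, and the other 3 cells stood at 2395 CPM. The cell rich in Col3a1 held 26 of the 39 UMIs of those 3 cells. Igfbp5 stood at 644, 1200 and 44.8 CPM, and pooled at 910 CPM, or 558 CPM without the Lpar6 knockout. Igfbp4 stood at 359 CPM. Igfbp2 went the other way, at 145 CPM against 711 CPM in urothelial cells. The ligand Igf1 gave 5 UMIs.

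Of 47 other growth factors and guidance ligands, 10 passed the limits and 8 were called. Rarres2, the chemoattractant chemerin, stood at 487, 650 and 986 CPM in wild type, the Lpar6 knockout and the Cab39l knockout. Sema3c, a semaphorin, stood at 674, 344 and 89.6 CPM. Gas6, a ligand of TAM receptors, stood at 142 CPM, and the guidance cues Slit3 and Ntn1 at 89.8 and 81.2 CPM. Shh, the hedgehog ligand of urothelium, named after its value was seen, stood at 20.3 CPM against 93.4 CPM in urothelial cells, with 6 of its 7 UMIs in wild type, and at 4.73 CPM without that library and 38.5 CPM without the Lpar6 knockout. The hedgehog receptor and target Ptch1 stood at 72.5 CPM against 6.63 CPM (32.1 CPM without the Lpar6 knockout), while Smo, Foxf1, Gli3 and Gli2 gave 13, 13, 3 and 3 UMIs. Of the 10 hedgehog genes 2 passed and 2 were called.

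Chemokines and cytokines gave 3 of 27 that passed, with 3 called. Il33, an alarmin of stroma, stood at 78.3 CPM in 12 cells and Ccl11, the chemoattractant of eosinophils, at 63.8 CPM in 10 cells. Ccl2 had 27 UMIs in 5 cells, 18 of the UMIs in wild type, and stood at 42.5 CPM without that library. Cxcl12 and Ccl7 gave 16 and 10 UMIs. Complement genes gave 8 of 19 that passed, with 7 called (median log2 7.35). Besides Serping1, C3 stood at 1049, 571 and 583 CPM in wild type, the Lpar6 knockout and the Cab39l knockout, and in immune cells at 46.4 CPM. Cd55, which shields cells from complement, stood at 667 CPM and the protease C1s1 at 267 CPM.

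Among receptors for these signals 16 of 53 passed, with 9 called (median log2 2.95). Tgfbr2 stood at 322, 169 and 179 CPM in wild type, the Lpar6 knockout and the Cab39l knockout, against 15.95 CPM in urothelial cells. Fgfr1 stood at 139 CPM against 4.89 CPM, the chemokine scavenger Ackr3 at 127 CPM against 0.964 CPM and the co-receptor Tgfbr3 at 119 CPM against 1.36 CPM. Lpar1, another receptor for lysophosphatidic acid, had 43 UMIs, with 20 in wild type (150 CPM), 22 in the Lpar6 knockout (116 CPM) and 1 in the Cab39l knockout. It stood at 125 CPM against 33.1 CPM in urothelial cells and was not called, but reached a log2 of 2.19 without the members rich in uroplakins.

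Retinoid genes gave 4 of 16 that passed, with 2 called. Aldh1a3, which makes retinoic acid, stood at 130 CPM (45 UMIs) against 0.0174 CPM in urothelial cells, and Aldh1a1 gave 13 UMIs. Dhrs3, which lowers retinal, went the other way, at 113 CPM against 262 CPM, with 52.0 CPM without wild type and 180 CPM without the Lpar6 knockout. Rxra gave 16 UMIs.

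Among positional and lineage transcription factors, 23 of 96 passed the limits, 10 were called higher and 33 had no UMI. Osr1, a factor of intermediate and lateral mesoderm, stood at 240 CPM in wild type, 270 CPM in the Lpar6 knockout and 179 CPM in the Cab39l knockout, with a UMI in 44 of 65 cells. Its level in urothelial cells was 0.0174 CPM and the log2 7.94. Tcf21, a factor of visceral mesenchyme, stood at 59.9, 201 and 224 CPM, and at 83.4 CPM without the Lpar6 knockout. Prrx1, of mesenchyme, stood at 180, 122 and 0 CPM, where 0 allows up to 134 CPM, with a log2 of 7.09. Each of these 3 factors stood below 1 CPM in both reference groups. Ebf1 stood at 351 CPM, but at 178 CPM in immune cells, where it is known from B cells. Klf4, which also belongs to the immediate early genes, stood at 667 CPM against 11.7 CPM in urothelial cells. The immediate early list as a whole summed to 3678 CPM, between urothelial (1249 CPM) and immune cells (5465 CPM), and the part of dissociation in it was not tested. Meis2, a Hox cofactor, stood at 157 CPM against 18.7 CPM.

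Hox genes, which mark position along the body axis, were found at 121 UMIs in 45 cells, and 23 of 39 had a UMI. Of them Hoxa7, Hoxa10 and Hoxa9 passed the limits, with 0 called. Hoxa7 stood at 60.9 CPM (37.7 to 93.0), Hoxa10 at 52.2 CPM (30.9 to 82.5) and Hoxa13, the gene of the hind end of the cluster, at 49.3 CPM (28.7 to 78.9). Urothelial cells stood at 44.2, 62.8 and 16.9 CPM, and immune cells at 10.2, 12.1 and 3.13 CPM. As a mean of the 3 library levels Hoxa13 stood at 75.4 CPM. The log2 of Hoxa7 against the other filtered cells was 0.46, but -0.06 after TMM scaling, which lowered the median over tested genes from 0.27 to -0.25. The next genes by counts were Hoxa9 with 8 UMIs (23.2 CPM, and 14.2 CPM without wild type), Hoxa3 and Hoxb4 with 6 each, and Hoxb2, Hoxb8 and Hoxd8 with 5 each. As a cluster, HoxA genes stood at 214 CPM (168 to 269) in fibroblasts, 106% of the urothelial level, and HoxB genes at 69.6 CPM (44.6 to 103), 36.9% of it. The uroplakins in the same cells stood at 26.3% of their urothelial level, and how much of the Hox counts is free urothelial RNA was not tested. HoxC genes, singled out after their values were seen, gave 9 UMIs in 9 fibroblasts, 3 in wild type, 5 with Lpar6 knocked out and 1 with Cab39l knocked out. That is 26.1 CPM (11.9 to 49.5), against 0.0319 CPM (11 UMIs in 13549 cells) in urothelial and 0.627 CPM (3 UMIs) in immune reference cells. HoxD genes gave 14 UMIs (40.6 CPM, 22.2 to 68.1).

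**Figure D4:**
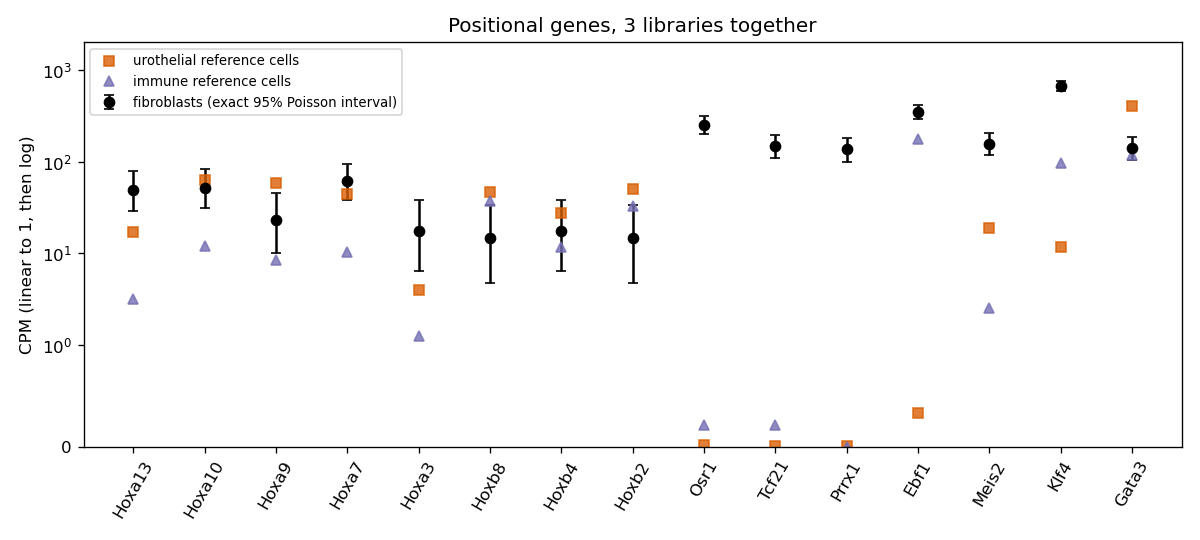
Levels (CPM, linear to 1 and logarithmic above) of Hox genes and other positional factors in fibroblasts, with exact 95% Poisson intervals for counting error, and in urothelial and immune reference cells. Hoxa7 and Hoxa10 lie near the urothelial level, while Osr1, Tcf21 and Prrx1 lie above 100 CPM in fibroblasts and below 1 CPM in both other groups.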

How the data were processed

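The authors deposited, per the file headers and values, unnormalized UMI counts of 31053 genes. The wild-type matrix had 8085 barcodes and 101977647 UMIs, that of the Lpar6 knockout 8293 and 139250807, and that of the Cab39l knockout 9406 and 175075246. Cell Ranger 3.0.2 and the build mm10 are named, per the submitters' processing notes, and no source used here gives the annotation release. The members and gene lists were chosen with earlier results of these data known. UMIs were summed over the members of each library and scaled to CPM with exact 95% Poisson intervals, and shares have exact 95% binomial intervals (Clopper-Pearson), both for counting error only. Where a level of 0 in a library is set beside others, the limit of 3 counts is given. Means over single cells and over the 3 library levels were tried as alternatives. Members were set against the other filtered cells as log2 of (CPM + 1) ratios and called at 4-fold or more. Urothelial reference cells had uroplakins at 0.5% of UMIs or more, and immune reference cells at least 5 immune marker UMIs and 0.2% of UMIs, with uroplakins under 0.5%. Named were the 6 fibroblast markers, 13 pan-fibroblast genes, the 5 highest genes of each matrix, signal and positional list (8 for Hox), the 20 of highest log2 and the targeted genes. Some genes that this rule covers are not reported here. Genes of the other lists named with values were chosen after those were seen. Libraries were not compared by fold, since 14 and 5 members are under the minimum of 20, and no sub-clusters were made below 150 members. No doublet caller was run, and members rich in uroplakins or immune markers were left out as an alternative. With 0 members at the immune limit of 0.2% of UMIs, this left out uroplakin-rich members only. Known folds were recovered on simulated data. Python 3.11.15, numpy 2.4.6, scipy 1.17.1, pandas 2.3.3 and matplotlib 3.10.9 were used.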

Additional observations from a re-analysis of the deposited data

Results flagged for a closer look

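Outside the cell limits, 2 of 8963 barcodes met the fibroblast marker limits, 1 in wild type and 1 in the Lpar6 knockout. Both had more than 20% mitochondrial UMIs, and both had a Pi16 UMI. They were not used in the report.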

How the results depend on the processing

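Gene and mitochondrial limits, marker minima and mixed droplets moved the number of fibroblasts between 55 and 71, and between 38 and 51 in the Lpar6 knockout. With members of low uroplakin and immune shares only, the Cab39l knockout held 3 in place of 5. Without a limit on low values, 1674 genes in place of 487 were called, with 73 in place of 24 growth factor and cytokine genes and 41 in place of 10 positional genes. With 100 UMIs asked for, 50 in place of 80 matrix genes and 6 in place of 10 positional genes were called, since fewer genes were tested. Leaving out a library gave 470 to 562 genes. TMM scaling lowered log2 values by 0.52, with 419 genes called, and turned Hoxa7 from 0.46 to -0.06. Against immune cells, Wnt4 (0.20) and Igfbp2 (0.13) were higher in fibroblasts, not lower. Of 216 alternative levels of 24 genes, 107 moved by more than their counting interval. With members of low uroplakin and immune shares only, most of these levels were higher. Dcn went from 11506 to 13804 CPM, Pi16 from 1782 to 2117 CPM and Sparc from 2322 to 2894 CPM, while Bmp4 went from 69.6 to 68.9 CPM. Of 223 list genes tested, 61 moved by over 1.5 times in level without 1 library, 51 of them without the Lpar6 knockout. Chosen after seeing the data, leaving out the 3 members with Msln gave 503 genes and leaving out the member rich in Col3a1 gave 500. The planned library folds and their alternatives gave no values, for lack of members. No paired analysis was possible because each group has 1 library.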
